A study of Mus musculus with 24 samples.

Results

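The vacuolar proton pump (V-ATPase) has a membrane sector, called V0, and its genes were followed across 24 mouse pancreatic tumours. The members were chosen by name: the subunit genes Atp6v0a1, Atp6v0a2, Tcirg1, Atp6v0b, Atp6v0c, Atp6v0d1, Atp6v0d2 and Atp6v0e, and the accessory protein genes Atp6ap1 and Atp6ap2. Of these 10 genes, 9 had a probe set carrying that symbol in the platform annotation, each a single probe set, among 19505 genes measured. Atp6v0c was not analysed here. The set was drawn up with 1 result in view, the low Atp6v0d2 signal in the combination against BMS754807, so that contrast is described without a test.

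The study measured total RNA of pancreatic ductal adenocarcinoma tumours on Clariom S arrays, whose values are log2 signal (1 unit is a doubling). There were 4 groups of 6 tumours. The control group received vector. The second group received BMS754807, which inhibits the kinases of the insulin receptor and of the receptor for insulin-like growth factor 1 (IGF1R), the third received hydroxychloroquine, a weak base that accumulates in lysosomes and blocks late autophagy, and the fourth, called the combination, received both agents. For strain, genotype, dose, length of treatment and place of the tumour, nothing was stated in the labels used here. Nor was it stated that each tumour had its own animal, and errors and p-values therefore measure the spread between these samples, which may be technical.

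The V-ATPase pumps protons into lysosomes, endosomes and the Golgi. Its cytosolic V1 sector splits ATP and turns a rotor, and the V0 sector lets protons pass through the membrane between a ring of proteolipid subunits and the large a subunit. The d subunit couples the rotor to that ring. Most V0 genes are expressed in every cell, whereas Atp6v0d2 is known as the d isoform of osteoclasts and certain macrophages. Weak bases such as hydroxychloroquine are protonated and trapped in compartments that this pump acidifies.

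Many lysosomal genes are known to carry the E-box core CACGTG near their start site, the core of the element read by the transcription factor TFEB. The core reads the same on both strands. RefSeq promoter windows of 300 bases (250 before and 50 after the start, assembly GRCm38.p6) were at hand for 8 of the 10 members and held the core in 3 of the 8, which is 37.5%. It was present in 1 of 9 V1 genes with a window (11.1%) and in 2187 of 27025 genes overall (8.09%), and in 7.15% of 32851 windows. These counts are a description of letters and not of binding. The stretches around the matches are shown because these 3 genes are the members that carry the core, with the core in capitals and each sequence written along the gene's own strand.

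Atp6v0b, chr4:117887330-117887389, minus strand: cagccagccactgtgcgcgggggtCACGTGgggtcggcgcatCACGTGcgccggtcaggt

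Atp6v0d1, chr8:105566050-105566079, minus strand: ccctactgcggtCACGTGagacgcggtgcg

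Atp6v0e, chr17:26676387-26676416, plus strand: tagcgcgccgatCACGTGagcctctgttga

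Atp6v0b carried the core at 2 places, 36 and 18 bases before the start site. In Atp6v0d1 the core began 3 bases before the start and ran across it, and in Atp6v0e it lay just after the start. The windows of Atp6v0a1, Tcirg1, Atp6v0c, Atp6ap1 and Atp6ap2 did not hold these letters. No window was at hand for Atp6v0a2 and Atp6v0d2.

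The arrays were alike in overall scale, with medians between 6.79 and 7.03. The ductal keratins Krt7, Krt8, Krt18 and Krt19 and the epithelial cadherin Cdh1 were bright in the tumours. St14, Cldn4, Cldn3 and Cldn7 of the same list were at a middle level, from the 46.8th to the 55.3rd percentile of genes by mean signal. Of the 12 epithelial markers, 0 had a group mean under the 20th percentile of all values, against 3 of 8 measured acinar markers in each group. In 5 arrays the skeletal muscle markers averaged more than 2 log2 units above their means: control 5, BMS754807 2 and 6, hydroxychloroquine 5 and combination 1. Whole tumours were measured, so fewer cells of a type and less RNA per cell cannot be told apart.

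Atp6v0d2 had the widest range of group means among the 9 measured members. Its highest and lowest group means were those of the groups behind its choice, so this range restates the choice in part. In the control tumours the log2 signal of Atp6v0d2 ran from 7.15 to 8.40 with a median of 7.34. Under BMS754807 alone it ran from 7.13 to 8.71 with a median of 8.22. Under hydroxychloroquine alone it ran from 6.54 to 8.02, median 7.07, and in the combination from 5.72 to 7.28, median 6.57. The combination tumours were thus the lowest and the BMS754807 tumours the highest, with control and hydroxychloroquine tumours between them. The order of the group means was BMS754807 (8.04 ± 0.62, SD, n = 6), control (7.54 ± 0.46), hydroxychloroquine (7.21 ± 0.59) and combination (6.55 ± 0.56). Of the steps in that order, 0.51 and 0.32 were under the pooled SD within groups (0.56), and the last, 0.66, was above it.

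**Figure D1:**
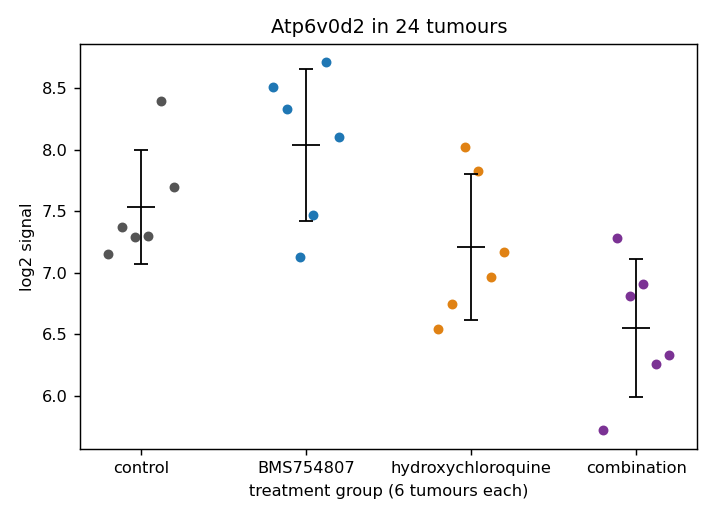
Log2 signal of Atp6v0d2 (vertical axis) in each tumour of the 4 groups (horizontal axis, 6 tumours each); the points are tumours and the bars are the group mean with 1 SD. The combination tumours lie between 5.72 and 7.28 and the BMS754807 tumours between 7.13 and 8.71.

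The contrast that drew attention to Atp6v0d2 was the combination against BMS754807 alone. The signal was lower by 1.49 log2 units in the combination (log2 difference -1.49 ± 0.31, SE; 95% interval -2.12 to -0.86), or 0.356 of the level. The groups met at 1 tumour on each side: 5 of 6 combination tumours were below every BMS754807 tumour, and the highest of them, at 7.28, lay above the lowest BMS754807 tumour, at 7.13. The size of this difference and its interval restate the choice of the gene and support nothing. In the same contrast 0% of genes passed an adjusted p under 0.05 and 8.61% had an unadjusted p under 0.05.

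Against control, Atp6v0d2 in the combination was lower by 0.98 (log2 difference -0.98 ± 0.31, SE; 95% interval -1.61 to -0.35), or 0.506 of the level. All 6 combination tumours were below the control mean and 5 of 6 were below the lowest control tumour. The difference was -0.64 without the 5 muscle-rich arrays. Against hydroxychloroquine alone it was -0.66 ± 0.31 (95% interval -1.29 to -0.03), and the 2 groups overlapped. These contrasts use the same combination tumours as the one that chose the gene and carry no test. The background over all genes is 0% by adjusted p for both, with 5.06% by unadjusted p against control and 5.39% against hydroxychloroquine.

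Hydroxychloroquine alone against control is the comparison of Atp6v0d2 that used neither of the groups behind its choice. The log2 difference was -0.32 ± 0.31 (SE; 95% interval -0.95 to 0.31; limma adjusted p = 0.991). An exact two-sided permutation test over the 12 tumours gave p = 0.325, where 6 against 6 can reach 0.00216. Control tumour 5 held the highest control value, 8.40, and without it the difference was -0.15; without the muscle-rich arrays it was -0.10. The test did not separate these groups, and the interval leaves room for a difference of -0.95.

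Under BMS754807 alone, Atp6v0d2 was higher than control by 0.51 ± 0.31 (95% interval -0.12 to 1.14), and the groups overlapped from 7.15 to 8.40. Against hydroxychloroquine alone, the BMS754807 tumours were higher by 0.83 ± 0.31 (95% interval 0.20 to 1.46). In that pair all 6 hydroxychloroquine tumours were below the BMS754807 mean. Averaged over both backgrounds, the difference made by hydroxychloroquine was -0.91 ± 0.22 and the difference made by BMS754807 was -0.08 ± 0.22. The interaction, the difference made by hydroxychloroquine in the presence of BMS754807 minus that in its absence, was -1.17 ± 0.43 (95% interval -2.06 to -0.28). Each of these values contains BMS754807 or combination tumours and is given as a description.

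Across the 24 tumours Atp6v0d2 also spread more widely than its fellow subunits. Its SD within groups was 0.56, at the 89.0th percentile of all genes, whose median was 0.33. The other 8 members had SDs within groups between 0.15 and 0.24, at the 4.77th to the 23.5th percentile. The SDs were not matched for signal level. Atp6v0d2 was the dimmest measured member, at the 50.7th percentile of genes by mean signal, with the others at the 63.0th to the 94.1st. Its signal spanned 2.99 log2 units over the 24 tumours, and the other members spanned 0.61 to 0.93, where the median gene spanned 1.33. The ends of the Atp6v0d2 span were BMS754807 tumour 5 and combination tumour 1, from the groups behind the choice of the gene. That span therefore restates the choice in part.

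Among the members, the 3 measured a subunits, which form the fixed channel for protons, were close to level across the groups. A further a isoform, Atp6v0a4, was measured outside the member list and is described with the other V0 paralogs. Atp6v0a1, the isoform of neurons and many other cells, ran from 13.39 to 14.02 over all tumours, with group means from 13.68 to 13.76. Atp6v0a2, the isoform of the Golgi and endosomes, ran from 10.82 to 11.72, with means from 11.16 (hydroxychloroquine) to 11.33 (BMS754807). Tcirg1 encodes the a3 isoform that osteoclasts use to acidify bone. It ran from 10.17 to 10.95, and its mean was 10.48 under BMS754807 and between 10.60 and 10.61 in the 3 other groups. For each of these 3 members every group overlapped every other, and neighbours in the order of means differed by less than the SD within groups.

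Of the proteolipid ring, Atp6v0b was measured. It ran from 9.02 to 9.60 in control tumours (median 9.37), from 8.98 to 9.28 under BMS754807 (median 9.24), from 8.92 to 9.57 under hydroxychloroquine (median 9.29) and from 9.21 to 9.69 in the combination (median 9.44). The BMS754807 tumours were the lowest as a group and the combination tumours the highest, and all 4 groups overlapped. In the combination against BMS754807, Atp6v0b was higher by 0.26 ± 0.12 (95% interval 0.02 to 0.49), and 5 of 6 combination tumours were above the highest BMS754807 tumour. This is the opposite sign to Atp6v0d2 in the same contrast, and is likewise a description. Its interaction was 0.33 ± 0.16, which had an adjusted p of 0.951 in limma.

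Atp6v0d1 is the d subunit found in all tissues, the counterpart of Atp6v0d2. Its log2 signal ran from 12.20 to 12.70 in control tumours, 12.13 to 12.49 under BMS754807, 12.09 to 12.58 under hydroxychloroquine and 12.14 to 12.46 in the combination. The group means, from 12.30 to 12.40, lay within 0.10 of each other, and Atp6v0d1 had the smallest SD within groups of the 9 members. The small e subunit gene Atp6v0e, which sits beside the ring, had means of 11.69 in control, 11.62 under BMS754807, 11.71 under hydroxychloroquine and 11.85 in the combination. Its combination tumours, from 11.49 to 12.21, overlapped all the other groups.

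Atp6ap1 and Atp6ap2 encode accessory proteins that help V0 to assemble, and Atp6ap2 is also known as the prorenin receptor. Atp6ap1 ran from 11.67 to 12.45, with group means from 12.05 (control) to 12.18 (hydroxychloroquine). Atp6ap2 ran from 12.25 to 12.93, with means from 12.55 (combination) to 12.70 (control and hydroxychloroquine). No group of either gene stood clear of another.

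**Figure D2:**
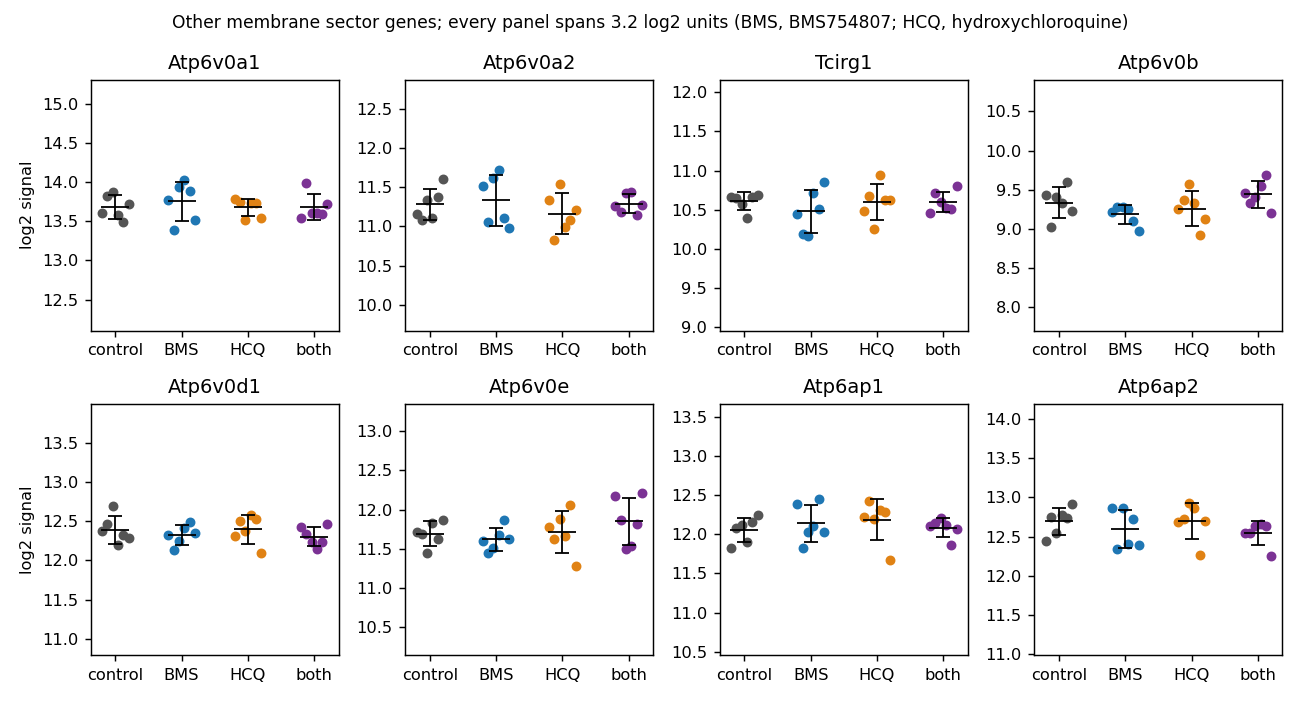
Log2 signal (vertical axis) of the 8 other measured members in each tumour of the 4 groups (horizontal axis), with the group mean and 1 SD; every panel spans the same width of axis. In each panel the 4 groups overlap, and the group means of a gene span from 0.08 (Atp6v0a1) to 0.26 (Atp6v0b).

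Tested across all genes, none of these 8 members passed an adjusted p under 0.05 in any comparison. With BMS754807 against control, 3 were higher and 5 lower, from -0.15 to 0.09, with limma adjusted p from 0.951 to 0.995. The smallest p was that of Atp6v0b, at -0.15 ± 0.12 (SE). In the background 0% of genes passed the adjusted and 5.88% the unadjusted threshold, and 0 of the 8 passed either. The 95% intervals of the 8 reached from -0.39 to 0.35, so differences beyond those bounds lay outside them.

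With hydroxychloroquine against control, 3 of the 8 were higher and 5 lower, from -0.12 to 0.13, and Atp6ap1 had the smallest p (0.13 ± 0.13, SE). None passed either threshold, against 0% and 4.81% of all genes. With the combination against control, 4 were higher and 4 lower. Here Atp6ap2 had the smallest p, at -0.15 ± 0.13, and the intervals of the 8 reached from -0.41 to 0.44. None passed either threshold, against 0% and 5.06% of all genes.

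With the combination against hydroxychloroquine, 4 were higher and 4 lower, and Atp6v0b was again first by p (0.18 ± 0.12, SE; limma adjusted p = 0.902). With BMS754807 against hydroxychloroquine, 2 were higher and 6 lower, and Atp6v0a2 had the smallest p (0.17 ± 0.14). None of the 8 passed either threshold in these comparisons. The background was 0% and 5.39% in the first, and 0.0205% (4 genes) and 8.87% in the second.

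**Figure D3:**
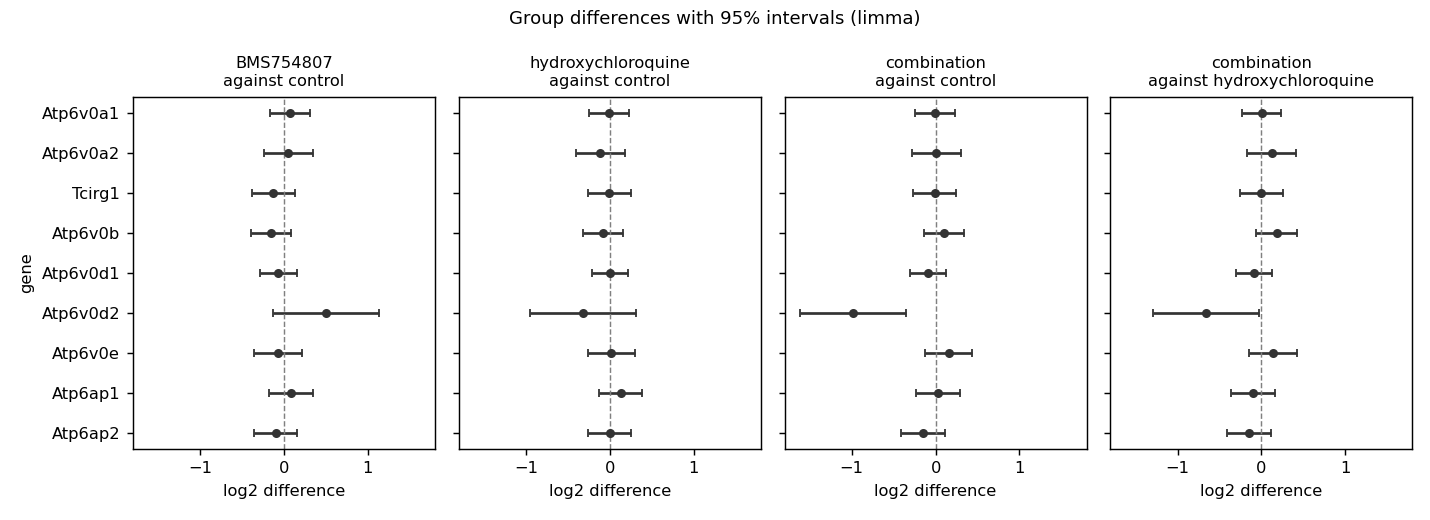
Log2 difference with its 95% interval (horizontal axis) for the 9 measured members (vertical axis) in 4 comparisons, from the limma fit of all 24 arrays; the dashed line marks no difference. Atp6v0d2 has the widest intervals, and the other 8 members lie between -0.15 and 0.18.

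Averaged over both backgrounds, BMS754807 gave 4 higher and 4 lower of the 8, with Atp6ap2 first by p at -0.12 ± 0.09 (SE; limma adjusted p = 0.901). Hydroxychloroquine gave 4 and 4 as well, with Atp6v0e first at 0.12 ± 0.10 (adjusted p = 0.784). The interaction ran from -0.18 to 0.33 over the 8. None passed either threshold, against 0% and 5.72% of all genes for BMS754807, 0% and 8.09% for hydroxychloroquine and 0% and 5.05% for the interaction. In the contrast used to choose Atp6v0d2, 1 of the 8 (Atp6v0b) had an unadjusted p under 0.05, against 8.61% of all genes, and nothing is read from that count.

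The members did not move as a block from tumour to tumour. After group means were removed, the 36 pairs of members had a median Pearson correlation of 0.12 over 24 arrays, and 21 pairs were above 0. The closest pair was Atp6v0d1 with Atp6ap1 (r = 0.58, Spearman rho = 0.46), followed by Atp6v0a1 with Atp6v0d1 (r = 0.52). Atp6v0b and Tcirg1 were the most opposed (r = -0.41). Atp6v0d2 had a median correlation of 0.05 with the other members, and its correlations ran from -0.21 to 0.29. These are descriptions over arrays that share processing and cell make-up.

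The genes most like Atp6v0d2 by the same measure were Plin2, the coat protein of lipid droplets (r = 0.80, rho = 0.83), and the sulfotransferase gene Chst1 (r = 0.78, rho = 0.83). Next came Dbn1 (0.70), Tdrd1 (0.70), Teddm1a (0.70), Chadl (0.68), the carbonic anhydrase gene Car12 (0.67) and Dlg4 (0.67). Their brightness differed. Mean log2 signal was 13.06 for Plin2, 11.31 for Dbn1, 8.92 for Dlg4 and 5.60 for Chst1. Chadl (4.77), Tdrd1 (4.42) and Car12 (3.80) were dimmer, and Teddm1a (3.26) was under the 20th percentile of all values (3.31). Without the 2 arrays farthest from the median of Atp6v0d2, r was 0.75 for Plin2 and 0.76 for Chst1. The most opposed were Lefty1, an inhibitor of Nodal signalling (-0.78), Hmgn5 (-0.75) and the matrix metalloproteinase gene Mmp28 (-0.71). They were picked as extremes from all genes, so no test is attached.

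Atp6v0d2 is a marker of osteoclasts and of multinucleated macrophages, and a score was formed from 10 other genes of those cells, all of them measured, as their mean deviation from each gene's mean over the arrays. The score ran from -0.36 to 0.70 in control tumours (median -0.13), from -0.20 to 0.72 under BMS754807 (median 0.38), from -0.36 to 0.78 under hydroxychloroquine (median -0.17) and from -0.44 to 0.12 in the combination (median -0.23). The groups overlapped, with the highest median in BMS754807 tumours and the lowest in the combination, as for Atp6v0d2 itself. The likeness did not hold for the combination against hydroxychloroquine alone. There 5 of the 10 markers were higher and 5 lower (median log2 difference -0.015), with 48% of all genes lower, and Atp6v0d2 was at -0.66. The mean of 2 of the 10 markers in control, BMS754807 and hydroxychloroquine tumours and of 3 in combination tumours was under the 20th percentile of all values, Oscar and Calcr among them.

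Within groups, tumours with a higher score had a higher Atp6v0d2 signal. With group means removed, r was 0.67 over 24 arrays (permutation within groups, 100000 resamples, two-sided, p = 0.00139; 0.0375 after Benjamini-Hochberg adjustment over 27 relations, 9 members by 3 scores). Spearman's rho was 0.71 (permutation p = 0.00063, adjusted 0.0170). The 24 arrays include the BMS754807 and combination tumours behind the choice of the gene, with their group means removed. The gene and the marker lists were chosen with earlier results of these data known, so these p-values are given as a description. Leaving out hydroxychloroquine tumour 4 and control tumour 5, which lay farthest from the median score, r was 0.59. The correlation was positive in each group, at 0.91 in control, 0.85 in BMS754807, 0.46 in hydroxychloroquine and 0.56 in combination tumours.

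The relation was carried by some markers more than others. Mmp9, a secreted matrix metalloproteinase of osteoclasts and neutrophils, had r = 0.65 with Atp6v0d2, and the osteoclast receptor gene Oscar had 0.56. The acid phosphatase gene Acp5 had 0.52, the collagen-degrading cathepsin gene Ctsk 0.47 and the integrin gene Itgb3 0.46. Ocstamp, a gene of cell fusion, had 0.42, and these 6 exceeded the 95th percentile of the correlations of all genes. Nfatc1, the osteoclast master transcription factor, had -0.22 and the calcitonin receptor gene Calcr -0.16.

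No other relation of a member to a score passed the adjustment. The general macrophage score, from 14 of 15 markers, had r = 0.24 with Atp6v0d2 (permutation adjusted p = 0.683), and 2 of the 14 markers exceeded the 95th percentile. Atp6v0a2 had the strongest other relation, with the epithelial and ductal score (r = 0.54, permutation p = 0.0307, adjusted 0.415). Tcirg1 had r = 0.46 with the macrophage score (adjusted p = 0.460). Markers of other cells were compared with Atp6v0d2 too: 8 of 8 endothelial markers had a positive correlation (median 0.50, against 0.44 for the osteoclast markers), 6 of 6 neutrophil markers (median 0.34), 9 of 9 fibroblast markers (median 0.29) and 2 of 12 epithelial markers (median -0.12). Above the 95th percentile were 5 of the 8 endothelial and 3 of the 6 neutrophil markers, so such correlations were not limited to osteoclast markers. The endothelial and neutrophil scores were not among the 3 tested.

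**Figure D4:**
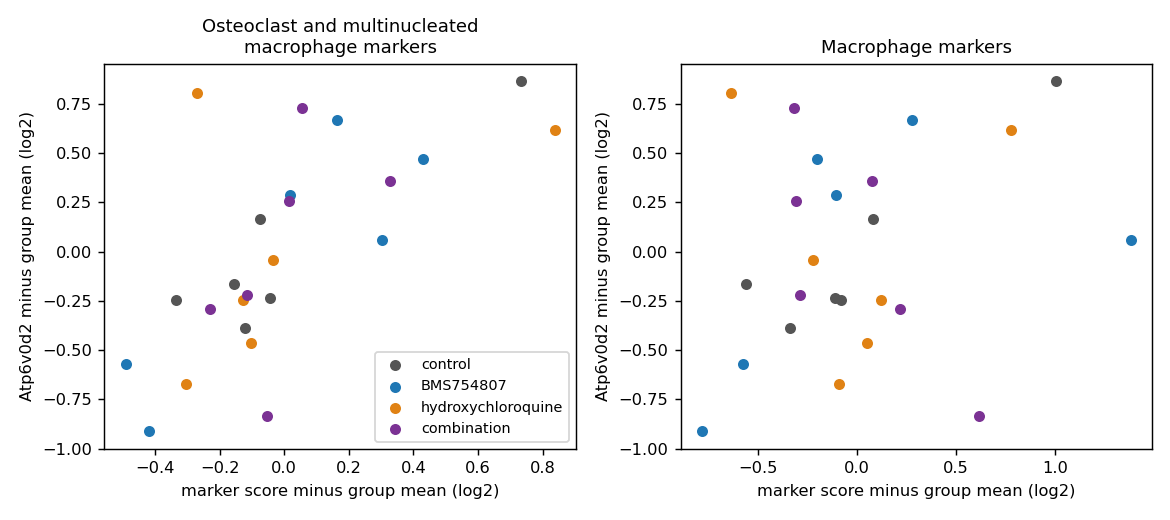
Atp6v0d2 minus its group mean (vertical axis, log2) against a marker score minus its group mean (horizontal axis, log2) in 24 tumours, coloured by group, for the osteoclast and multinucleated macrophage score and for the macrophage score. The first has r = 0.67 and the second r = 0.24.

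In the combination against BMS754807, 10 of the 10 osteoclast markers, 13 of the 14 macrophage markers, 7 of the 8 lipid-associated macrophage markers and 8 of the 8 endothelial markers were lower, with median log2 differences of -0.33, -0.33, -0.32 and -0.59. Lower too were 9 of 9 fibroblast, 12 of 12 skeletal muscle, 6 of 6 adipocyte and 5 of 6 neutrophil markers (medians -0.32, -1.14, -1.47 and -0.16), and 9 of 12 epithelial markers were higher (median 0.30). Of all genes, 50.5% were lower in this contrast. None of these markers passed an adjusted p under 0.05. Against control the combination was lower in 9 of 10 osteoclast, 12 of 14 macrophage, 6 of 8 lipid-associated macrophage and 8 of 8 endothelial markers. Of all genes, 48.4% were lower there. Also lower than control were 6 of 9 fibroblast, 5 of 6 adipocyte and 5 of 6 neutrophil markers, while 11 of 12 skeletal muscle and 10 of 12 epithelial markers were higher. The macrophage score ran from -0.65 to 0.28 in the combination and from -0.71 to 1.45 under BMS754807, and the endothelial score from -0.64 to -0.02 and from -0.82 to 1.47.

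With the osteoclast score as a covariate, chosen after seeing the data, the difference of Atp6v0d2 between combination and BMS754807 was -0.96 ± 0.27 (SE) in place of -1.49. With the macrophage score it was -1.39, with the epithelial score -1.43, with the endothelial score (also chosen afterwards) -1.26, and without the 5 muscle-rich arrays -1.24. The sign was the same in each. Against control, the osteoclast score gave -0.79 in place of -0.98. With the same score, BMS754807 against control was 0.17 in place of 0.51, BMS754807 against hydroxychloroquine 0.46 in place of 0.83, and the interaction -0.67 in place of -1.17. These adjusted values are a description of the contrasts that the choice of the gene touched, and the part of other cells in the Atp6v0d2 values was not tested.

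The V1 sector, the soluble part that hydrolyses ATP, had all 13 of its listed genes measured, and 0 passed the adjusted threshold in any comparison. Its median log2 difference was -0.01 with BMS754807 against control (6 higher, 7 lower), 0.04 with hydroxychloroquine (7 higher, 5 lower) and 0.00 with the combination (7 higher, 5 lower). A pair of core subunits had their lowest group means under BMS754807 alone. Atp6v1a, the catalytic A subunit, ran from 11.43 to 11.85 in control and from 11.18 to 11.68 under BMS754807. The log2 difference was -0.28 ± 0.11 (SE; limma adjusted p = 0.838, unadjusted 0.0217). Atp6v1b2, its nucleotide-binding partner in the V1 ring, ran from 12.74 to 13.07 in control, 12.54 to 12.90 under BMS754807, 12.55 to 13.11 under hydroxychloroquine and 12.85 to 13.08 in the combination. Its difference under BMS754807 was -0.26 ± 0.10 (SE; limma adjusted p = 0.822, unadjusted 0.0128).

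Both V1 genes were also lower under BMS754807 than under hydroxychloroquine, with differences of -0.24 ± 0.11 for Atp6v1a and -0.22 ± 0.10 for Atp6v1b2 (limma adjusted p 0.546 and 0.531). Over both backgrounds BMS754807 gave -0.18 ± 0.08 for Atp6v1a, and the interaction of Atp6v1b2 was 0.34 ± 0.14, with adjusted p of 0.833 and 0.951. Atp6v1b2 was higher in the combination than under BMS754807 by 0.29 ± 0.10, the same sign as Atp6v0b and the opposite of Atp6v0d2. The 13 V1 genes had 6 higher and 7 lower in that contrast. Atp6v1c2, an isoform of the stalk subunit C, was dim in the tumours, at 2.97 in control and 3.27 under BMS754807 (difference 0.30 ± 0.14, limma adjusted p = 0.839).

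The remaining lists gave 0 genes past the adjusted threshold in any comparison. Of 3 other V0 paralogs, 2 were measured, and Atp6v0a4, the a isoform of acid-secreting kidney cells, was lower in the combination than under BMS754807 (-0.33 ± 0.15), at a dim signal of 3.55 against 3.88. Of 12 assembly and regulation genes, 11 were measured. Dmxl2, a subunit of the rabconnectin complex that joins V1 to V0, was at -0.58 ± 0.28 in the combination against control (limma adjusted p = 0.944). With single arrays left out this difference ran from -0.75 to -0.36, the latter without control tumour 5. Under the alternative settings listed below it ran from -0.61 to -0.25. Tldc2, at a dim signal, was at -0.57 ± 0.23 under hydroxychloroquine (adjusted p = 0.979).

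Of 16 genes of the TFEB family and the lysosomal membrane, 14 were measured. Tfec, a TFEB relative found in macrophages and osteoclasts, ran from 7.05 to 8.71 under hydroxychloroquine and from 6.22 to 7 in the combination. The gap between these groups was narrow, from 7 to 7.05, in a gene named for its p. The share of all genes with such a gap was not counted, and nothing is read from it. The difference was -0.95 ± 0.28 (SE; limma adjusted p = 0.769, unadjusted 0.00265). In that comparison 4 of the 14 genes were higher and 10 lower, and 1 (Tfec) had an unadjusted p under 0.05, a count near the 5.39% of all genes. Tfec also had -0.45 ± 0.20 for BMS754807 over both backgrounds (adjusted p = 0.833), an interaction of -0.99 ± 0.40 (adjusted p = 0.951), and -0.61 ± 0.28 in the combination against BMS754807. That last difference ran from -0.65 to -0.16 under the alternative settings listed below. Scarb2, a lysosomal membrane receptor, was at -0.27 ± 0.12 in the combination against control (adjusted p = 0.944), and the lysosomal membrane protein gene Lamp2 at -0.21 ± 0.09 under BMS754807 against hydroxychloroquine (adjusted p = 0.528).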

How the data were processed

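Total RNA of 24 tumours was hybridised to Clariom S arrays. The deposited table held 22206 probe sets as log2 signal processed by the authors with Transcriptome Analysis Console 4.0, per the submitters' processing notes. The log base was inferred from the values (1.45 to 19.0). Background correction, normalization and genome build were not given in the sources used here. Symbols came from the platform annotation; 19572 probe sets had 1 symbol and 2634 had none. The probe set of highest mean stood for a gene, which dropped 67 and left 19505 genes.

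The functions lmFit and eBayes of limma 3.58.1 (R 4.3.3) fitted one model with 4 group coefficients, leaving 20 residual degrees of freedom, with two-sided p adjusted by Benjamini-Hochberg over all genes and a threshold of 0.05. The scripts were checked on simulated data. Arrays have no count depth, and their number limits the precision. The comparisons share groups. The members and lists were chosen with earlier results of these data known. Named were Atp6v0d2, members and listed genes with an unadjusted p under 0.05 (or the member of smallest p), and the 8 genes of highest and 3 of lowest correlation with Atp6v0d2, passing over predicted, olfactory and vomeronasal genes. Alternatives covered scaling, filters, variance prior, array weights, marker scores, muscle-rich arrays and each array left out. The exact permutation test used SciPy 1.17.1, and the permutations within groups used NumPy 2.4.6.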

Additional observations from a re-analysis of the deposited data

Results flagged for a closer look

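Single tumours that stood apart from the other 5 of their group were sought in 72 groups (18 genes by 4 treatments) by Dixon's test. Chance sets apart about 1 in 20 groups, and 5 were found. Tcirg1 was 10.39 in control tumour 4, where the others ran from 10.58 to 10.69. Atp6ap1 was 11.67 in hydroxychloroquine tumour 6, where the others ran from 12.20 to 12.42. Atp6ap2 was 12.27 in hydroxychloroquine tumour 5 (others 12.69 to 12.93) and 12.25 in combination tumour 6 (others 12.55 to 12.66). Atp6v1b2 was 12.55 in hydroxychloroquine tumour 5 (others 12.91 to 13.11), which is 1 of the 5 muscle-rich arrays. No tumour stood apart by this test for Atp6v0d2.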

How the results depend on the processing

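Under 13 settings and with each of 24 arrays left out, 0 members passed the adjusted threshold. Atp6v0d2 kept its sign throughout in the combination against BMS754807 (-1.67 to -1.32 with arrays left out). The difference made by BMS754807 over both backgrounds, -0.08, was near 0 and turned sign. It was 0.0245 without muscle-rich arrays, 0.009 without control 5 and 0.0137 without BMS754807 tumour 3. It was 0.003167 without hydroxychloroquine tumour 3 and 0.005667 without combination tumour 1. With single arrays left out it ran from -0.15 to 0.0137, and under the other settings from -0.167 to 0.0245. The cause of the turn was not tested.

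Counts of genes past the threshold moved more. For BMS754807 against hydroxychloroquine (4 genes) the count was 2 after quantile normalization, 0 after centring arrays on their medians, 1 with array weights, 13 with a trended robust prior, 35 with the macrophage score, 8 with the epithelial score, 0 with the osteoclast score, 13 with the endothelial score, 0 without muscle-rich arrays and 1 with only the arrays compared. Leaving out single arrays gave 0 to 9. BMS754807 against control had 1 with the osteoclast score and 0 to 1 with arrays left out, hydroxychloroquine against control 0 to 1, and the combination against BMS754807 0 to 1. Hydroxychloroquine over both backgrounds had 5 with the trended robust prior and 0 to 2 with arrays left out. The osteoclast and endothelial scores were chosen after seeing the data.

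The replicate numbers as a whole did not pair the tumours: of 36 same-number pairs, 9 had a correlation over 0.1, with a median of -0.01. The tumours numbered 3 were the exception, with all 6 of their pairs above 0 (0.0868 to 0.305) and 5 of them over 0.1. With the replicate number as a block, 1 gene passed for BMS754807 against hydroxychloroquine, 1 for hydroxychloroquine against control and 1 for hydroxychloroquine over both backgrounds.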
